A study of Mus musculus with 8 samples.

Results

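The CC chemokine ligands are small secreted proteins with 2 adjacent cysteines near the amino terminus, and 10 of them, Ccl2, Ccl3, Ccl4, Ccl5, Ccl6, Ccl7, Ccl8, Ccl9, Ccl12 and Ccl24, were followed here among the 49315 genes counted. The 10 were chosen by gene symbol, matched to the gene identifiers of the count table through GENCODE M21. The counts came from primary macrophages grown from C57BL/6 mouse marrow in 10 ng/ml macrophage colony-stimulating factor (M-CSF). These cells were transfected by lipofection with a negative control gapmeR (4 libraries, replicates 2, 5, 6 and 7) or with a gapmeR against MAARS (4 libraries, replicates 9, 11, 13 and 15), and the labels name no inflammatory stimulus. A gapmeR is a short antisense oligonucleotide through which RNase H cuts the RNA it pairs with, MAARS (Gm14461) is a macrophage long noncoding RNA, and the labels give 25 nM gapmeR for both groups. Nothing in the sources used here says whether the libraries of a group came from separate cultures or animals. The p-values therefore set each difference against the spread between these libraries, and need not extend to other cultures or animals.

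CC chemokines bind G protein-coupled receptors on leukocytes and guide their movement, and they are best known in atherosclerosis for bringing monocytes into the vessel wall. Ccl2, Ccl7, Ccl8 and Ccl12 belong to the monocyte chemoattractant proteins, which act mainly on monocytes, and Ccl2, Ccl7 and Ccl12 do so through Ccr2. Ccl3, Ccl4 and Ccl5 attract monocytes and T cells, and Ccl3 and Ccl5 bind Ccr1. Ccl6 and Ccl9 are rodent ligands of Ccr1 that macrophages make without stimulation, whereas Ccl24 (eotaxin-2) binds Ccr3 and attracts eosinophils. Many chemokine mRNAs carry AU-rich elements in their 3′ UTR, which proteins such as HuR (Elavl1) bind to stabilize an mRNA and proteins such as tristetraprolin (Zfp36) bind to have it degraded.

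Of these 10 ligand genes, 9 lie in a pair of clusters on chromosome 11 (GRCm38). The first runs from 82035571 to 82116799, 81.2 kb, and holds Ccl2, Ccl7, Ccl12 and Ccl8 in this order, all on the plus strand. The second runs from 83525778 to 83664683, 139 kb, and holds Ccl5, Ccl9, Ccl6 and Ccl3 on the minus strand and Ccl4 on the plus strand. Ccl24 lies apart, on the minus strand of chromosome 5 from 135569937 to 135573049. No exon of a member overlaps an exon of another annotated gene. Ccl11 is annotated between Ccl7 and Ccl12 and had 0 counts in every library, and E230016K23Rik (2 to 16 counts) and Rpl9-ps1 (0 to 1 counts) lie inside the second cluster, and no other gene wholly inside either cluster was counted well enough to be tested.

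The promoters of Ccl12 and Ccl8 are shown because these neighbours lie at the far end of the first cluster and both fell, and those of Ccl3 and Ccl9 because, in the second cluster, they held motifs searched for. Each is the 300 bases from 250 before to 50 after the gene start, 5′ to 3′ in the direction of the gene, taken from RefSeq (GRCm38.p6), whose table held 5 of the 10 members. Capitals mark the letters TATAAA (the TATA box), GAAANNGAA (the interferon-stimulated response element) or the NF-kappaB consensus, searched on both strands.
Ccl12, chr11:82101595-82101894, plus strand: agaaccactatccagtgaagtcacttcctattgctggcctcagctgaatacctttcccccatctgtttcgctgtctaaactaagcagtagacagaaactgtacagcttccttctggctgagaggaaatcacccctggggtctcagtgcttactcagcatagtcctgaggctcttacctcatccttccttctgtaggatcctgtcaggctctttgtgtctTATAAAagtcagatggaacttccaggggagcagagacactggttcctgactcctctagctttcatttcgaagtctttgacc
Ccl8, chr11:82114935-82115234, plus strand: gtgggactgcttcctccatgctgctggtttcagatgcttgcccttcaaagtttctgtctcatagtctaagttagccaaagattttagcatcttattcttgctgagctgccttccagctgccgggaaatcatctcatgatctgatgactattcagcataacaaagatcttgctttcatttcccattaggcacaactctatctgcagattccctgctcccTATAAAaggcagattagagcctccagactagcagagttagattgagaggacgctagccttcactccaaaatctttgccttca
Ccl3, chr11:83649329-83649628, minus strand: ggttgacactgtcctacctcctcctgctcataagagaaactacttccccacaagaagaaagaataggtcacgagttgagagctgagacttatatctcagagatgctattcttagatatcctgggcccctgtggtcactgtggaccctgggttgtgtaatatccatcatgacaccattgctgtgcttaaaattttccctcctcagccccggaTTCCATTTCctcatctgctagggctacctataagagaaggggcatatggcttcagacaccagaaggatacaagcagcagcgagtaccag
Ccl9, chr11:83578587-83578886, minus strand: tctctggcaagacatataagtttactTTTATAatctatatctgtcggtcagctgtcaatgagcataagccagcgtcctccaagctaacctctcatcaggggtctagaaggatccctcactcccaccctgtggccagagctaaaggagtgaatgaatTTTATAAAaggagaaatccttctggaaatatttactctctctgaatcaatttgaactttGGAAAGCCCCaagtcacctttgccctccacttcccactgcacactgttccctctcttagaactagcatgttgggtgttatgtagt
In Ccl12 the TATA letters began 31 bases before the gene start, and in Ccl8 they began 32 bases before it. The capitals in Ccl3 are the response element read on the opposite strand, beginning 39 bases before the start. In Ccl9 the capitals are TATA letters that began 224, 94 and 92 bases before the start, the last of these on the strand of the gene and overlapping the one before it, and the NF-kappaB consensus 35 bases before the start on the opposite strand. The promoter of Ccl6, chr11:83593038-83593337 on the minus strand, held none of the 3 motifs. Of 32851 promoters in the table, 13.6% held the TATA letters, 8.56% the response element and 8.46% the NF-kappaB consensus. A match is a run of letters and was not tested as a binding site.

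AU-rich elements were counted as ATTTA, and as the longer TATTTAT, in the 3′ UTR of the longest complete transcript of each gene. The longer element occurred once each in Ccl3, Ccl4 and Ccl12, and 29 bases around it are shown because these 3 were the members that carried it, with the element in capitals.
Ccl3: gtatttgtgacTATTTATtctgaaagact
Ccl4: attatttctatTATTTATgttttagttat
Ccl12: gggcagtgtgaTATTTATtatgatatcta
Among 20931 coding genes with an annotated 3′ UTR, 27.4% held TATTTAT and 64.7% held ATTTA, and the median 3′ UTR was 934 nt long. ATTTA occurred 5 times in the 167 nt of Ccl12, 5 times in the 409 nt of Ccl3 and 5 times in the 2465 nt of Ccl9. It occurred 4 times in the 943 nt of Ccl6, 2 times each in Ccl4 (302 nt) and Ccl7 (435 nt), and 1 time in Ccl2 (275 nt). It did not occur in Ccl5 (199 nt), Ccl8 (165 nt) or Ccl24 (858 nt).

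The libraries held 19287279 to 24541205 gene counts, and every MAARS gapmeR library held more than every control library. Levels are given as CPM, in which edgeR's TMM factors bring the libraries to the same effective size. Groups were compared by edgeR's quasi-likelihood test, and p-values were adjusted by Benjamini-Hochberg over the 13051 genes that passed its filter on low counts. The targeted RNA, MAARS, averaged 13.1 ± 1.36 CPM in the controls and 6.82 ± 0.844 CPM after its gapmeR (SD, n = 4 each), a decrease by 48.1% (adjusted p = 5.8e-05). Of the 10 macrophage markers examined, all were detected, and they summed to between 17979 and 21701 CPM in the control group and between 20712 and 23707 CPM in the MAARS gapmeR group, led by Lyz2, Lgals3 and Cd68; 4 of them were lower and 5 higher in edgeR's test. Because these are bulk libraries, fewer cells that make a ligand and less of its RNA in each cell cannot be told apart.

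After MAARS gapmeR 9 of the 10 CC ligands were lower and 1, Ccl24, was higher, each at an adjusted p under 0.05 in edgeR's quasi-likelihood test. Ccl24 passed the filter on low counts only through the MAARS gapmeR libraries, in which it was high, so its call is a description only. Over all genes tested, 24.0% were called lower and 21.3% higher. When libraries were scaled by upper-quartile factors instead, 2379 genes were lower and 3622 higher, against 3137 lower and 2782 higher with TMM, while the calls of the 10 ligands did not change. The study's methods name a log2 fold change of 1.5, and 5 ligands, Ccl2, Ccl5, Ccl7, Ccl8 and Ccl12, were lower by at least that much, against 1.69% of all genes tested. Ccl24 was higher by at least that much, as were 0.513% of all genes, but because of the filter this comparison is no support for its rise. In CPM, every MAARS gapmeR library lay below every control library for the 9 ligands that fell, which was so for 22.8% of all genes tested. The median log2 fold change of the 10 ligands was -1.67, and that of all genes tested was 0.0080. The members were chosen with these results known, so the counts describe the list and do not test it.

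**Figure D1:**
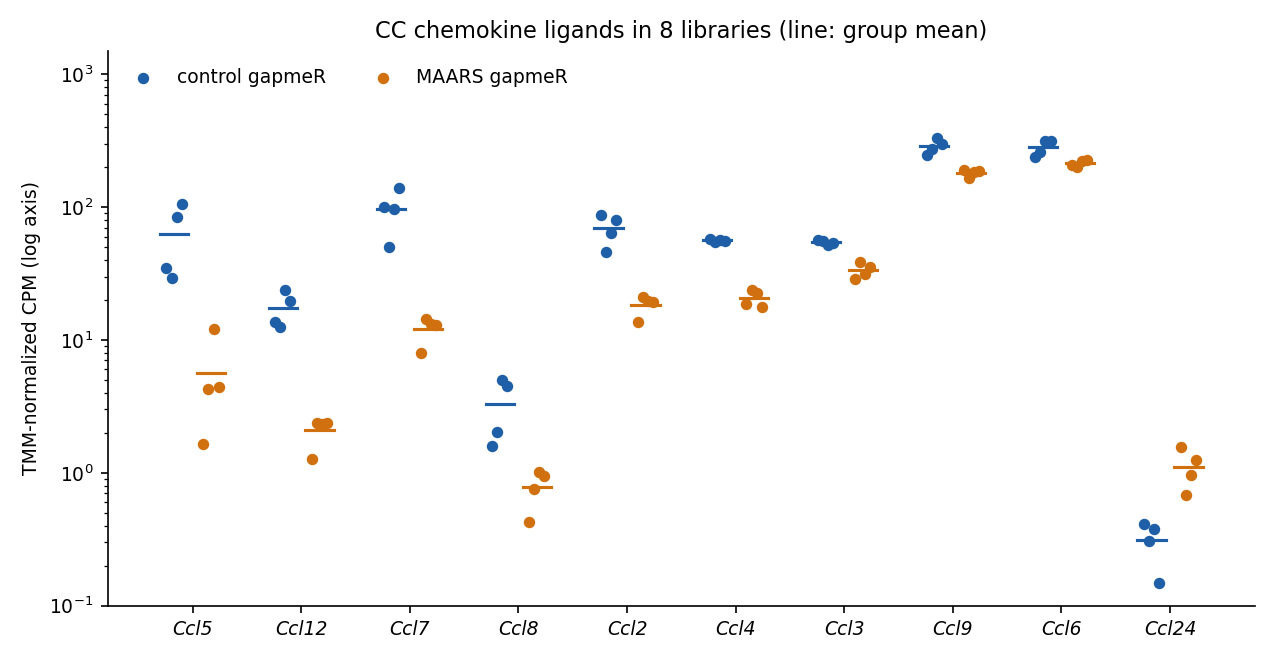
TMM-normalized CPM of the 10 CC chemokine ligands (log axis) in each of 4 control gapmeR libraries (blue) and 4 MAARS gapmeR libraries (orange), ordered by log2 fold change, with a line at each group mean. The groups do not overlap for any ligand, and Ccl24 is the one whose orange points lie above the blue ones.

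**Figure D2:**
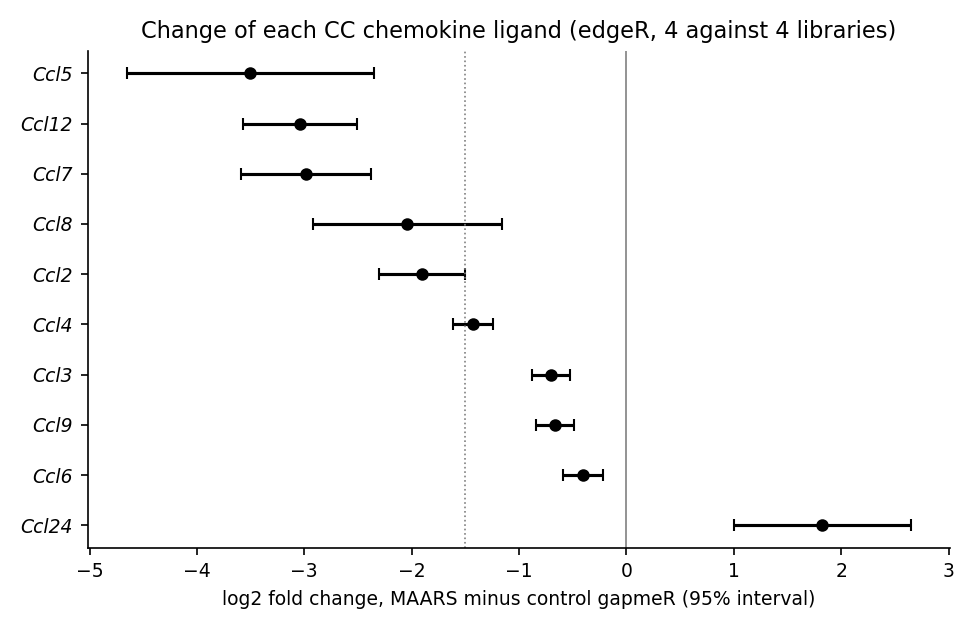
Log2 fold change of each ligand, MAARS gapmeR minus control gapmeR, with its 95% interval from edgeR's fit of 4 against 4 libraries; the dotted line marks -1.5. The estimates run from -3.50 for Ccl5 to -0.41 for Ccl6 on the lower side, and Ccl24 stands at 1.82.

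The monocyte chemoattractant proteins of the first cluster fell together, and Ccl12 and Ccl7 fell further than Ccl2. Ccl2, the main ligand that brings Ccr2-bearing monocytes out of marrow and into tissue, was 86.4, 46.2, 63.9 and 79.3 CPM in control replicates 2, 5, 6 and 7, and 13.7, 20.9, 19.7 and 19.2 CPM in MAARS gapmeR replicates 9, 11, 13 and 15. The lowest control library was still above the highest MAARS gapmeR library by more than the whole range of the latter. The log2 fold change was -1.90 (SE 0.184, adjusted p = 1.5e-05, edgeR), a decrease by 73.3%.

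Ccl7, a ligand of Ccr2 encoded next to Ccl2, was 99.6, 50.1, 96.6 and 139 CPM in the control libraries and 7.95, 14.4, 13.2 and 12.9 CPM in the MAARS gapmeR libraries, in the same order of replicates. Control replicate 5 was the lowest control library for both Ccl2 and Ccl7, and MAARS gapmeR replicate 9 was the lowest treated library for both. The log2 fold change of Ccl7 was -2.98 (SE 0.277, adjusted p = 1.2e-05, edgeR), so that it was 7.92-fold lower.

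Ccl12, a mouse monocyte chemoattractant with no single human counterpart, was 13.7, 12.6, 23.9 and 19.6 CPM with control gapmeR and 1.28, 2.39, 2.34 and 2.38 CPM with MAARS gapmeR. Treated replicates 11, 13 and 15 were nearly equal and replicate 9 lay below them. The log2 fold change was -3.04 (SE 0.242, adjusted p = 6.1e-06, edgeR), 8.23-fold lower.

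Ccl8, which in mouse acts on Ccr8, was the least abundant member of the first cluster, with 31, 40, 92 and 91 counts in the control libraries and 9, 19, 22 and 22 counts in the treated libraries. As CPM this was 1.59, 2.04, 4.98 and 4.47 against 0.426, 0.756, 1.01 and 0.953. Control replicates 6 and 7 were the high ones, and control replicate 2 came nearest to the treated group without reaching it. The log2 fold change was -2.04 (SE 0.401, adjusted p = 0.0017, edgeR), with a 95% interval from -2.92 to -1.16.

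The second cluster held both the largest and the smallest decreases. Ccl5 (RANTES), which attracts T cells and monocytes, was 34.8, 28.99, 84.4 and 104.5 CPM in control replicates 2, 5, 6 and 7. It was 1.66, 4.26, 12.04 and 4.42 CPM in MAARS gapmeR replicates 9, 11, 13 and 15. It was the most variable ligand in both groups: the highest control library was 3.61 times the lowest, and the highest treated library was 7.27 times the lowest. The log2 fold change was -3.50 (SE 0.525, adjusted p = 0.00029, edgeR), with a 95% interval from -4.65 to -2.35, and it was -4.18 without MAARS gapmeR replicate 13. T and NK cells also make Ccl5. Of their 8 markers examined, Cd3g was at 0 in every library, and Cd3d and Cd3e reached at most 2 counts. Cd4 carried nearly all of the summed level, ahead of Lck and Klrb1c. The sum was 66.2 to 85.6 CPM in the control group and 41.0 to 51.4 CPM in the MAARS gapmeR group. Cd4 was the only marker of the 8 that was tested, and it was lower in edgeR's test, so the sum is in effect the level of Cd4.

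Ccl4 (MIP-1beta), which attracts monocytes and T cells, was the steadiest member in the control group, at 57.4, 54.8, 56.9 and 55.1 CPM, and was 18.7, 23.9, 22.7 and 17.8 CPM in the treated libraries. Its log2 fold change was -1.43 (SE 0.0863, adjusted p = 3.7e-06, edgeR), just short of -1.5. Without MAARS gapmeR replicate 11 it was -1.51.

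Ccl3 (MIP-1alpha), its close paralog 13.2 kb away, was 56.0, 55.8, 51.8 and 53.7 CPM with control gapmeR and 28.8, 38.3, 31.2 and 35.1 CPM with MAARS gapmeR. The controls were again nearly equal, and the treated libraries were all lower. The decrease was smaller than that of Ccl4, a log2 fold change of -0.70 (SE 0.0807, adjusted p = 4.6e-05, edgeR) or 38.6%.

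Ccl9 and Ccl6, ligands of Ccr1, were the most abundant of the 10 by counts. Ccl6 fell least, and the fall of Ccl9 was close to that of Ccl3. The order of Ccl9 and Ccl3 was reversed when control replicate 2 or MAARS gapmeR replicate 9 was left out. Ccl9 was 248, 272, 328 and 296 CPM in the control libraries and 190, 164, 182 and 185 CPM in the treated ones, a log2 fold change of -0.66 (SE 0.0805, adjusted p = 6.9e-05, edgeR). Ccl6 was 238, 262, 312 and 316 CPM against 207, 199, 221 and 224 CPM, a log2 fold change of -0.41 (SE 0.0861, adjusted p = 0.0028, edgeR). For Ccl6 the lowest control library, replicate 2, was close to the highest treated one, so the groups were separate by a small margin only.

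Ccl24, which alternatively activated macrophages make and which acts on Ccr3, went the other way. It was near the limit of what these libraries can count, with 8, 6, 7 and 3 counts in control replicates 2, 5, 6 and 7 and 33, 17, 21 and 29 counts in MAARS gapmeR replicates 9, 11, 13 and 15. As CPM this was 0.410, 0.306, 0.379 and 0.147 against 1.56, 0.676, 0.965 and 1.26. The log2 fold change was 1.82 (SE 0.375, adjusted p = 0.0023, edgeR), with a 95% interval from 1.00 to 2.65. The filter asked for at least 0.483 CPM in 4 libraries, which no control library reached and all 4 treated libraries did, so Ccl24 entered the test only through the group in which it was high.

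**Figure D3:**
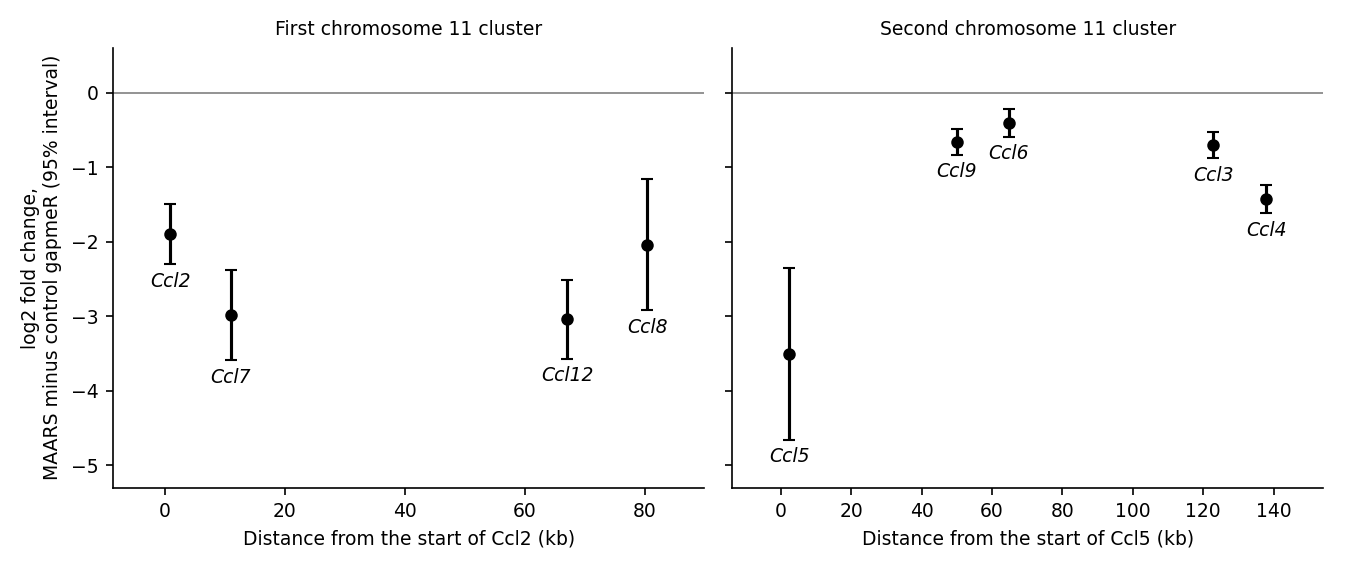
Log2 fold change, MAARS gapmeR minus control gapmeR, with its 95% interval against the distance of each gene's midpoint from the start of the first gene of its chromosome 11 cluster, in kb. All 4 genes of the first cluster lie at or under -1.90, whereas in the second Ccl5 lies at -3.50 and the other 4 between -1.43 and -0.41.

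Levels of different ligands were compared per kb of exon. With control gapmeR the order was Ccl6 (157 ± 21.4 CPM per kb, SD, n = 4), Ccl7 (120 ± 45.5), Ccl9 (93.9 ± 11.3), Ccl4 (84.9 ± 1.94), Ccl3 (71.0 ± 2.59), Ccl5 (65.8 ± 38.7), Ccl2 (60.6 ± 15.7), Ccl12 (32.5 ± 9.80), Ccl8 (6.39 ± 3.33) and Ccl24 (0.240 ± 0.0904). Most neighbours in this order overlapped in their libraries, and only Ccl4 and Ccl3, Ccl12 and Ccl8, and Ccl8 and Ccl24 did not.

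With MAARS gapmeR, Ccl7 moved from the second to the sixth place and Ccl5 from the sixth to the seventh. The order was Ccl6 (119 ± 6.55 CPM per kb, SD, n = 4), Ccl9 (59.3 ± 3.74), Ccl3 (43.5 ± 5.53), Ccl4 (31.5 ± 4.49), Ccl2 (16.2 ± 2.81), Ccl7 (15.1 ± 3.57), Ccl5 (5.83 ± 4.67), Ccl12 (3.91 ± 1.02), Ccl8 (1.54 ± 0.517) and Ccl24 (0.861 ± 0.294). Here each of the first 4 ligands lay above the next without overlap, as did Ccl12 above Ccl8, while Ccl2 with Ccl7, Ccl7 with Ccl5, Ccl5 with Ccl12, and Ccl8 with Ccl24 did.

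The summed level of the 10 ligands was 639, 552, 755 and 824 CPM per kb in the control libraries and 272, 298, 311 and 304 CPM per kb in the treated ones. They took between 0.0749% and 0.106% of a control library's counts and between 0.0478% and 0.0518% of a treated library's. Ccl6 made up 22.9 ± 2.55% (SD, n = 4) of the summed level per kb with control gapmeR and 40.1 ± 2.28% (SD, n = 4) with MAARS gapmeR. The share of Ccl9 went from 13.7 ± 1.93% to 20.1 ± 2.09%, that of Ccl7 from 16.96 ± 4.31% to 5.07 ± 1.01%, and that of Ccl5 from 8.998 ± 4.01% to 1.92 ± 1.47%. These shares are parts of 1 total, so a fall in some raises the others.

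**Figure D4:**
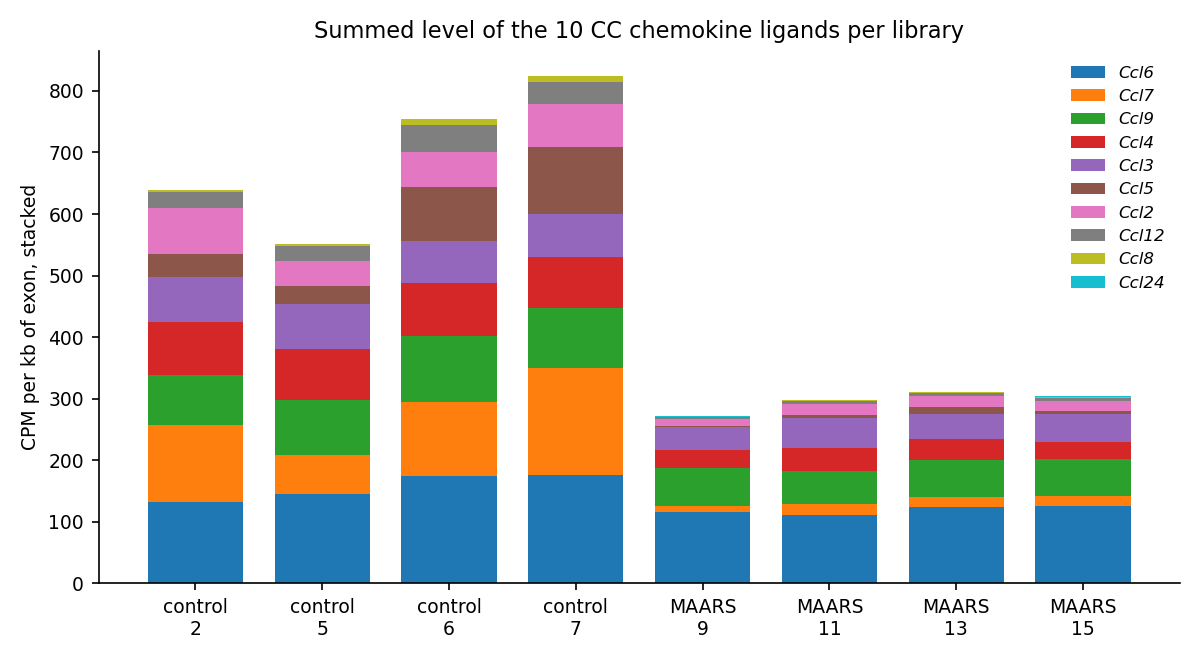
Stacked CPM per kb of exon of the 10 ligands in each library, control replicates 2, 5, 6 and 7 and MAARS gapmeR replicates 9, 11, 13 and 15, in the order of their control means. The treated bars reach 272 to 311 and the control bars 552 to 824, and Ccl6 is the largest part of every bar in both groups.

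Whether 2 related ligands moved by the same factor was asked with their log2 count ratio inside each library, which needs no scaling between libraries. Of 6 pairs of paralogs or neighbours, 5 ratios differed between the groups without overlap (two-sided exact permutation test, p = 0.0286 each, the smallest that 4 against 4 allow, or 0.0343 adjusted over the 6 pairs). The pairs were chosen with earlier results of these data known. How often other pairs of genes differ in this way was not computed, so the count describes these 6 pairs only. Ccl3 and Ccl4 had nearly equal counts in the control libraries, with log2 ratios of -0.04, 0.03, -0.13 and -0.04, and in the treated libraries Ccl3 exceeded Ccl4, with log2 ratios of 0.62, 0.68, 0.46 and 0.98. The ratio of Ccl3 to Ccl4 thus rose 1.66-fold.

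Within the first cluster, the log2 ratio of Ccl2 to Ccl7 was -0.43 ± 0.33 (SD, n = 4) with control gapmeR and 0.62 ± 0.11 (SD, n = 4) with MAARS gapmeR, so Ccl2 had fewer counts than Ccl7 in every control library and more in every treated one. The ratio of Ccl2 to Ccl12 rose 2.23-fold. Ccl12 fell further than its neighbour Ccl8, and the log2 ratio of Ccl12 to Ccl8 went from 2.52 ± 0.43 (SD, n = 4) to 1.42 ± 0.20 (SD, n = 4). The counts of Ccl8 behind that ratio were as low as 9.

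Ccl7 and Ccl12 were the pair whose ratio was not shown to differ, with a log2 ratio of 2.42 ± 0.48 (SD, n = 4) with control gapmeR and 2.53 ± 0.09 (SD, n = 4) with MAARS gapmeR. The difference was 0.10 (two-sided exact permutation test, p = 0.629 before and after adjustment). The control libraries were spread from 1.99 to 2.86 in this ratio, and the treated ones from 2.43 to 2.62. The log2 ratio of Ccl6 to Ccl9 rose by a small amount, from -0.02 ± 0.08 (SD, n = 4) to 0.24 ± 0.08 (SD, n = 4). For Ccl2/Ccl12 and Ccl6/Ccl9 the exact permutation p rose to 0.0571 when any 1 treated library (Ccl2/Ccl12), or control replicate 2, 5 or 6 or treated replicate 11, 13 or 15 (Ccl6/Ccl9), was left out.

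**Figure D5:**
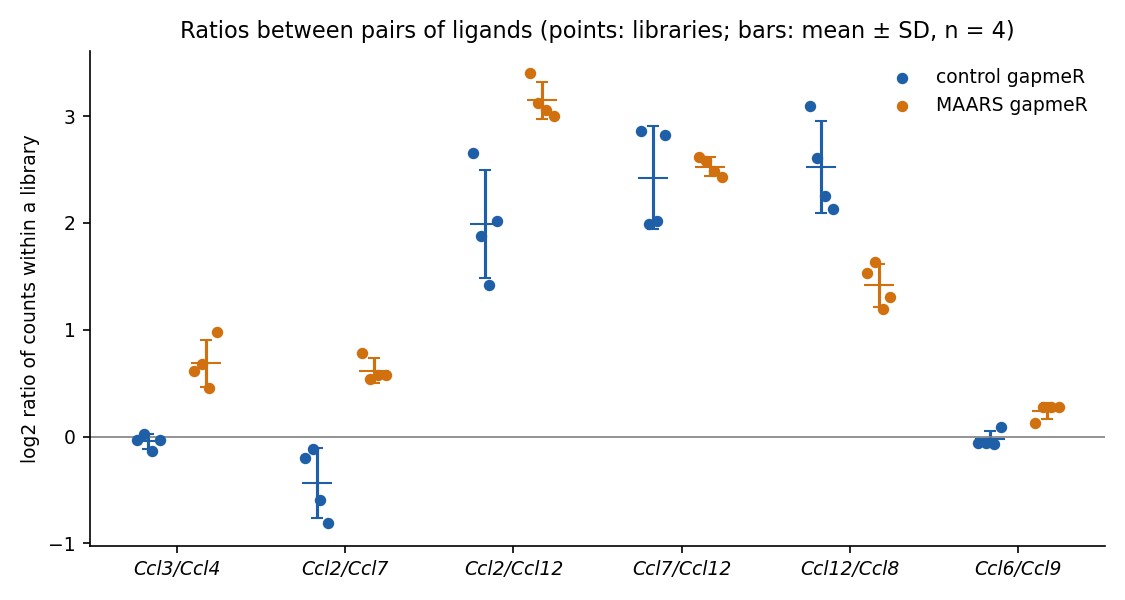
Log2 ratio of the counts of 2 ligands within each library for 6 pairs, control gapmeR in blue and MAARS gapmeR in orange, with mean ± SD (n = 4). The groups are apart for 5 pairs, and for Ccl7/Ccl12 the treated libraries lie inside the control range.

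Of 12 other CC ligand genes, 2 were counted well enough to be tested and neither passed at an adjusted p under 0.05, nor at an unadjusted p under 0.05, in edgeR's quasi-likelihood test, and neither passed by DESeq2 or limma-voom. Ccl25, a thymic and intestinal ligand of Ccr9, averaged 3.64 ± 0.618 CPM in the controls and 3.89 ± 0.896 CPM in the treated libraries (SD, n = 4 each), and 2.74% of its exon bases lie opposite exons of Elavl1. Ccl27a, a skin ligand of Ccr10, was 0.620 ± 0.200 CPM (SD, n = 4) and 0.905 ± 0.251 CPM (SD, n = 4), with adjusted p = 0.17. Another 7 of the 12, among them the macrophage products Ccl17 and Ccl1, had 0 counts in all 8 libraries, and Ccl20, Ccl22 and Ccl28 had at most 8 counts in any library.

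Among the receptors, 5 of the 14 genes listed here were tested, of which 2 were lower, none was higher and 3 did not pass in edgeR's quasi-likelihood test. Of all genes tested, 24.0% were called lower and 21.3% higher, and 5 genes are too few to be set apart from these shares. Ccrl2, an atypical receptor that holds chemerin at the cell surface, was 35.02, 37.5, 41.3 and 35.2 CPM in the control libraries and 11.9, 12.1, 16.4 and 12.8 CPM in the treated ones, a log2 fold change of -1.49 (SE 0.101, adjusted p = 5.0e-06). Ccr2, the receptor of Ccl2, Ccl7 and Ccl12, was 13.01 ± 2.46 CPM (SD, n = 4) and 9.25 ± 0.473 CPM (SD, n = 4), a log2 fold change of -0.49 (adjusted p = 0.0080, edgeR), with no overlap between groups.

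Ccr1, the receptor of Ccl3, Ccl5, Ccl6 and Ccl9, was 143 ± 18.9 CPM (SD, n = 4) and 126 ± 4.73 CPM (SD, n = 4), a log2 fold change of -0.18 (adjusted p = 0.091, edgeR), and it passed without control replicate 5 or without the filter on low counts, with the lowest adjusted p at 0.0086. Ccr3, the receptor of Ccl24, differed by 0.17 on the log2 scale (adjusted p = 0.48, edgeR), and Ccr1l1 by -0.50 (adjusted p = 0.22, edgeR). The median log2 fold change of the 5 receptors was -0.49, which is the value of Ccr2, and that of all genes tested was 0.0080.

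Of 24 listed genes that carry the signal of chemokine receptors, all tested, 10 were lower, 8 were higher and 6 did not pass in edgeR's quasi-likelihood test. Over all genes tested 24.0% were lower and 21.3% higher, so calls in both directions also occur outside this list. In the list both shares were larger, but it was chosen with earlier results known and the difference was not tested. The median log2 fold change of the 24 listed genes was 0.00088. The 4 with the smallest p were Rac2, Plcb3, Rgs1 and Pik3cg. Rgs1, which speeds the shut-off of G proteins below these receptors, was 159, 115, 104 and 113 CPM in the control libraries and 37.9, 57.6, 48.2 and 50.6 CPM in the treated ones, a log2 fold change of -1.33 (SE 0.141, adjusted p = 2.6e-05). Rac2, a small GTPase that drives actin assembly in leukocytes, fell by 0.45 on the log2 scale (adjusted p = 2.3e-05, edgeR). Pik3cg, the phosphoinositide kinase that G proteins activate, rose by 0.64 on the log2 scale (adjusted p = 0.00013, edgeR), and the phospholipase gene Plcb3 rose by 0.53 (adjusted p = 2.5e-05, edgeR).

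The AU-rich list held the genes of 10 RNA-binding proteins, most of which act on AU-rich elements. All 10 were tested, and 4 were lower, 3 were higher and 3 did not pass in edgeR's quasi-likelihood test. Their median log2 fold change was 0.03. Over all genes tested 24.0% were called lower and 21.3% higher, so calls in both directions also occur outside this list. In the list both shares were larger, but 10 genes are few and the difference was not tested. Elavl1 (HuR), the protein with which the study is concerned, was 46.6, 46.0, 47.1 and 47.9 CPM in the control libraries and 44.6, 48.9, 48.3 and 50.1 CPM in the treated ones, and the groups overlapped. Its log2 fold change was 0.03 (SE 0.04996, adjusted p = 0.61), which says nothing of where in the cell the protein was. Zfp36 (tristetraprolin) fell by 0.38 on the log2 scale (adjusted p = 0.0015, edgeR), and Zc3h12a (regnase-1), an endonuclease that cuts inflammatory mRNAs, fell by 0.65 (adjusted p = 0.0015, edgeR).

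Zfp36l1, a relative of tristetraprolin, rose by 0.36 on the log2 scale (adjusted p = 0.010, edgeR), although 55.9% of its exon bases lie opposite another annotated gene and the strand setting of the counting is not given in the sources used here. Khsrp, a decay-promoting protein, rose by 0.30 (adjusted p = 0.00020, edgeR). Tial1 rose by 0.12 (adjusted p = 0.046), and Hnrnpd and Tia1 fell by 0.14 (adjusted p = 0.040) and 0.20 (adjusted p = 0.032) in edgeR's test. These last 3 calls were each lost in 6 to 10 of the 15 alternative settings. Zfp36l2 differed by 0.14 on the log2 scale (adjusted p = 0.098, edgeR) and Rc3h1 by 0.03 (adjusted p = 0.75, edgeR). The count of called genes in this list fell from 7 to 4 without control replicate 2 or 7, or without MAARS gapmeR replicate 11 or 13.

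For each ligand, the gene outside the CC ligands with the most similar profile was the one with the smallest root mean square difference of log2 CPM over the 8 libraries, each profile centred on its own mean, among 13013 genes. For Ccl2 this was the integrin gene Itgb7, with a difference of 0.22, for Ccl4 Prr5l with 0.083, and for Ccl8 the formyl peptide receptor gene Fpr2 with 0.23. Phf11d was nearest to Ccl12 with a difference of 0.23, H2-Q7 to Ccl7 with 0.31 and Ifi213 to Ccl5 with 0.43, and the last 2 of these belong to multigene families whose reads may be split between copies. Trmt61b was nearest to Ccl3 with 0.074, Apobec3 to Ccl6 with 0.054, Pirb to Ccl9 with 0.062, and 1700021J08Rik to Ccl24 with 0.21. Among the ligands themselves, Ccl7 and Ccl12 were nearest to each other with a difference of 0.30, closer than H2-Q7 was to Ccl7, and Ccl6 and Ccl9 were nearest to each other with 0.15.

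Markers of other cells that make CC ligands were examined beside these results. The 8 stromal markers summed to between 460 and 1047 CPM in the control group and between 720 and 1238 CPM in the MAARS gapmeR group, nearly all of it from Col1a2, Col1a1 and Col3a1, and none of the 6 that were tested passed in edgeR's test. The 8 neutrophil markers, led by S100a9, Ltf and S100a8, summed to between 72.3 and 210 CPM and between 74.6 and 120 CPM. Control replicate 7, which had the most Ccl5, Ccl6 and Ccl7 of the control group, also had the highest neutrophil sum of all libraries and the highest stromal sum of the controls. Of the other ligands, Ccl8, Ccl9 and Ccl12 were highest among the controls in replicate 6, and Ccl2, Ccl3, Ccl4 and Ccl24 in replicate 2. The part of neutrophils and stromal cells in the levels was not tested. Without control replicate 7 all 9 ligands were still lower and Ccl24 higher at an adjusted p under 0.05 in edgeR's test. The 5 endothelial markers, led by Vwf, Kdr and Pecam1, summed to between 48.8 and 79.6 CPM and between 76.9 and 140 CPM, where Vwf rose and Kdr fell. The B cell list (led by Cd79b, Ms4a1 and Cd79a), the dendritic cell list (Zbtb46, Xcr1 and Clec9a) and the list of mast cells, basophils and eosinophils (Prg2, Siglecf and Kit, with Fcer1a at 0) each summed to at most 3.78 CPM in any library.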

How the data were processed

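RNA-Seq counts of 4 control gapmeR and 4 MAARS gapmeR libraries of mouse BMDMs were used, grouped by their labels. The deposited values are raw counts per gene made by the authors, not normalized: ribodepleted total RNA was read as pairs of 100 nt, and the submitters' processing notes name Trimmomatic 0.36, STAR 2.5.2b, featureCounts of Subread 1.5.2 and the build GRCm38. The strand setting and the treatment of reads that map to several places are not given in the sources used here, so paralogs may share reads. Depth was 19287279 to 24541205 counts per library, and libraries of a group differed by more than sampling noise (chi-square 4.02 to 14.1 per gene).

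The filter was filterByExpr, with a minimum count of 10 and a minimum total of 15, and TMM factors, glmQLFit and glmQLFTest of edgeR 4.0.16 (R 4.3.3) were applied to all 13051 genes that passed, with Benjamini-Hochberg adjustment. CPM are TMM-normalized, and the spread is given as SD. Within-library log2 ratios were taken after 0.5 was added to each count and compared by two-sided exact permutation tests (scipy 1.17.1). Positions, exon lengths and 3′ UTRs came from GENCODE M21 (GRCm38), and promoters from RefSeq. The procedure was also run on simulated counts with known changes, drawn from the mean levels and fitted dispersions of these data. The alternatives were RLE and upper-quartile factors, DESeq2 1.42.0, limma-voom (limma 3.58.1), no filter, libraries thinned to the smallest total, loess offsets for length and GC (span 0.3), 2 in place of 0.5 in the ratios, and each library left out in turn.

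The members, the gene lists and the pairs were chosen with earlier results of these data known. Named besides them are MAARS, every tested gene of the other CC ligands, CC receptors and AU-rich lists (where over 10 were tested, the 4 smallest p in each direction), the 4 smallest p of the signalling list, the nearest profile of each member, tested genes inside the clusters and the 3 most abundant of each marker list. Ccl17, Ccl1, Ccl20, Ccl22, Ccl28, Ccl11, E230016K23Rik, Rpl9-ps1 and the markers at or near 0 were named after their values were seen. Some genes of the receptor and marker lists are not reported here and were left out of the counts.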

Additional observations from a re-analysis of the deposited data

Results flagged for a closer look

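Within a group of 4 libraries, 1 library stood far from the other 3 by Dixon's test in 5 of the 50 sets of values examined, and chance alone gives about 1 such set in 20. In MAARS gapmeR replicate 9, Ccl12 was 1.28 CPM, and the nearest treated library was at 2.34 CPM. The log2 ratio of Ccl2 to Ccl7 was 0.79 in that library, and the nearest was 0.57. The log2 ratio of Ccl6 to Ccl9 was 0.12 in the same library against 0.27 in the nearest, and in control replicate 7 it was 0.094 against -0.056. The B cell markers summed to 2.46 CPM in control replicate 7, against 1.51 CPM in the nearest control library. No other set of values of MAARS, the 10 ligands, the 6 ratios or the 8 marker lists stood out in this way.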

How the results depend on the processing

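Each of the 10 ligands had the same direction, and an adjusted p under 0.05, in all 15 alternative fits, with 9 lower and 1 higher in each, and 5 to 6 ligands were at or under -1.5. The 1 that was higher is Ccl24, which in the main fit passed the filter only through the treated group. The highest adjusted p of any ligand in any of these fits was 0.0115, for Ccl6. Counts of called receptors ranged from 2 to 3 and of called signalling genes from 14 to 18, and no other CC ligand was called. The count of called genes in the AU-rich list was 4 to 7 when a library was left out. No setting moved the median log2 fold change of all genes by over 0.1. Leaving out libraries one at a time, the difference in log2 ratio (MAARS gapmeR minus control gapmeR) ranged from 0.97 to 1.38 for Ccl2 to Ccl12 and from 0.24 to 0.30 for Ccl6 to Ccl9, with exact permutation p of 0.0571 without any 1 treated library for the first pair, and without control replicate 2, 5 or 6 or treated replicate 11, 13 or 15 for the second, and from -0.04 to 0.25 for Ccl7 to Ccl12, which was -0.039 without control replicate 5 and -0.031 without control replicate 6. For the other 3 pairs the p stayed at 0.0286, and 2 in place of 0.5 added to the counts changed no call. No paired analysis was done, because the groups share no replicate number and the labels do not say which libraries belong together. Few counts limit the precision for Ccl24 and Ccl8, and every treated library was deeper than every control, but thinning all libraries to the smallest total changed no call of a ligand.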
